A study of Mus musculus with 10 samples.

Results

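The transcripts described here encode the machinery of DNA replication and of cell division. A set of 42 mouse genes was taken by symbol from a table of 26312 genes: 15 of them act at the entry into S phase or in DNA synthesis, and 27 act in mitosis or in the G2 phase that precedes it. All 42 were found, and the 41 with a mean of at least 5 normalized read counts over the 10 libraries were kept, 15 of S phase and 26 of mitosis. The gene left out was Bub1, a kinase of the spindle checkpoint, with a mean of 3.7. Just inside the limit were Cenpe at 6.7 and Hmmr at 6.8. The choice of genes used no difference between groups, but it was made with results of these data in view.

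RNA came from luminal epithelial cells of the mammary glands of C57BL/6J mice aged 12 wk, sorted as high for EpCAM, low for CD49f, positive for Sca-1 and negative for CD49b, a gate that holds hormone-sensing luminal cells. Mice labelled RSK2(+/+), called WT here, were compared with mice labelled RSK2(-/-), called KO here. RSK2 is a kinase activated by ERK1/2. Glands were taken in estrus from 3 WT and 3 KO libraries and in diestrus from 2 WT and 2 KO libraries; estrus follows the estrogen peak of the mouse cycle, and diestrus is the phase in which progesterone dominates. How the RSK2 allele was made, and whether a library holds 1 mouse or several, is not given in the sources used here, so p-values measure the spread between these libraries.

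The libraries summed to between 14108057 and 15307238 normalized counts. Rps6ka3, which encodes RSK2, had 136, 128 and 137 normalized counts in the WT estrus libraries, 158, 156 and 164 in KO estrus, 165 and 139 in WT diestrus, and 156 and 165 in KO diestrus. It was therefore not lower in the libraries labelled KO, and since the count covers the whole gene it does not check the genotype label. Every direction below refers to the libraries labelled KO or WT. Transcripts of the luminal proteins Epcam, Krt8, Krt18, Krt19 and Cdh1 together reached 389918 to 510483 normalized counts in every WT estrus library and 394933 to 409751 in every KO estrus library. The sum hides differences between these genes. Cdh1 had 20434, 23805 and 18220 in WT estrus and 9927, 13472 and 13761 in KO estrus. Krt19 was also lower in KO estrus without overlap, and Epcam, Krt8 and Krt18 overlapped. Of genes with a mean of at least 10, 13.1% were lower without overlap.

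A cell that leaves rest passes through 2 transcriptional waves of its cycle. The first is driven by E2F factors and supplies cyclin E, the MCM helicase, the PCNA clamp and the enzymes of deoxynucleotide synthesis. The second is driven by B-MYB, FOXM1 and NF-Y and supplies cyclin B, the mitotic kinases, the centromere and the spindle. In resting cells the DREAM complex holds both sets of promoters down, and it is tethered to the second set by the cell cycle genes homology region (CHR). In the mammary gland, luminal cells divide in pulses that follow the ovarian cycle.

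These 2 sets of genes carry different promoter words. In the RefSeq windows of GRCm38.p6 from 250 bases before to 50 bases after each start, a window was found for 35 of the 42 genes, 13 of S phase and 22 of mitosis. CHR words (TTTGAA or TTCGAA, both strands) were present in 18 of 22 mitosis genes (81.8%), in 2 of 13 S phase genes (15.4%) and in 19.2% of all 32851 windows. The CCAAT box (CCAAT, both strands), bound by NF-Y, was present in 19 mitosis genes (86.4%), 9 S phase genes (69.2%) and 37.4% of all windows. A CHR together with a CCAAT box was found in 17 mitosis genes (77.3%), 2 S phase genes and 7.5% of all windows. E2F words (TTTCCCGC, TTTGGCGC, TTTCGCGC or TTTGCCGC, both strands) were found in 5 S phase genes (38.5%), 1 mitosis gene (4.5%) and 2.3% of all windows. A match describes letters in the window and is not a measured site.

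Of the mitosis genes with a window, Cenpa, Cdca8 and Ccnb2 had the smallest p at estrus, and their promoters are shown to display the paired CHR and CCAAT words. They lie at chr5:30666636-30666935 (plus strand), chr4:124936868-124937167 (minus strand) and chr9:70421505-70421804 (minus strand). Each is written 5′ to 3′ in the direction of transcription, with the CHR and CCAAT words in capitals:
Cenpa: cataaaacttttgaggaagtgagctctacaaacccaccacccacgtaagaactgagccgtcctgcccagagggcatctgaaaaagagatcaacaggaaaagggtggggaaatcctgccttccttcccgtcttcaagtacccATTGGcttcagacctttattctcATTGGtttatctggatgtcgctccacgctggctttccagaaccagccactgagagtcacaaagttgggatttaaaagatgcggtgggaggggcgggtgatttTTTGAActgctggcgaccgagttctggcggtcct
Cdca8: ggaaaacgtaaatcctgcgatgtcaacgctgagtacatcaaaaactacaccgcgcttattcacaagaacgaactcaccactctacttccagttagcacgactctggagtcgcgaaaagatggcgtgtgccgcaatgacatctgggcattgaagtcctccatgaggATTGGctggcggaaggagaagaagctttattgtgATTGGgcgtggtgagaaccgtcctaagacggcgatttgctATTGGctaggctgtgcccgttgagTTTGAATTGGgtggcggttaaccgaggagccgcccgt
Ccnb2: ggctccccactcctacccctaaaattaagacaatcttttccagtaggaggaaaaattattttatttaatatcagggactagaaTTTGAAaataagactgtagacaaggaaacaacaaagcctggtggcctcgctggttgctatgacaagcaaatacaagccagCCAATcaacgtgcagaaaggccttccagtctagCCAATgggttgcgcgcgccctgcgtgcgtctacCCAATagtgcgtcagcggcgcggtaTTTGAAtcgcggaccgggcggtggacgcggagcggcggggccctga
The CHR word of Cenpa begins 16 bases after the annotated start and that of Cdca8 13 bases after it, where it overlaps a CCAAT box (read as ATTGG). Ccnb2 has 2 CHR words and 3 CCAAT boxes, and Cdca8 has 4 CCAAT boxes.

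Mcm6 and Pcna, the most highly expressed S phase genes, are shown for contrast. Their windows lie at chr1:128359656-128359955 and chr2:132253131-132253430, both on the minus strand, with E2F and CCAAT words in capitals:
Mcm6: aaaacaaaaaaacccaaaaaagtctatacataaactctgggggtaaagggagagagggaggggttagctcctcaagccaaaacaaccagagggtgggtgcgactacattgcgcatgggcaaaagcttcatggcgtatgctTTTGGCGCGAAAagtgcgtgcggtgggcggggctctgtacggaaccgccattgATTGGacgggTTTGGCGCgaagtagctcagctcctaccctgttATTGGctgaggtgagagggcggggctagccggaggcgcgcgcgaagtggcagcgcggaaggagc
Pcna: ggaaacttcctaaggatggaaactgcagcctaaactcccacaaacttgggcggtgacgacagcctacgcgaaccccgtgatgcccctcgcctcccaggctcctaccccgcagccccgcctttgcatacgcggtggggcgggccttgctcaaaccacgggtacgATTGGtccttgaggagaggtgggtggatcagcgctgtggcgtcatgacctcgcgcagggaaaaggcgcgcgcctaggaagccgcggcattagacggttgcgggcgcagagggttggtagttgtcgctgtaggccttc
Mcm6 holds 3 E2F words, of which TTTGGCGC and GCGCGAAA overlap, and no CHR word. Pcna holds 1 CCAAT box and neither a CHR nor an E2F word of the kinds searched.

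The 2 sets differed in level before any comparison of groups. Per kilobase of transcript, the mean level over all libraries was highest for Pcna, with 651 normalized counts per kb, and Mcm6, with 428. Among mitosis genes Aurka (145 per kb) and Stmn1 (114 per kb) stood highest, and most others were far lower, such as Top2a at 7.26, Ccnb1 at 6.23, Cdk1 at 4.27 and Mki67 at 2.28 per kb. Of the 15 S phase genes 14 had a mean of at least 50 normalized counts, against 7 of the 27 mitosis genes. The mitosis set is thus read from fewer counts, and its single genes are measured less precisely.

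Each set was first summarised per library, as the mean over its kept genes of log2(normalized count + 1) minus that gene's mean over the 10 libraries. For the mitosis genes this level was -0.84, -0.00 and 0.29 in the WT estrus libraries, 1.13, 1.22 and 1.01 in KO estrus, -0.23 and -0.97 in WT diestrus, and -1.0 and -0.60 in KO diestrus. All 3 KO estrus libraries lay above all 7 others. Aurkb, Plk1, Cenpe and Hmmr reached the mean of 5 only through their KO estrus counts, so the limit can add to this gap. For the S phase genes it was -0.29, -0.08 and 0.09 in WT estrus, 0.22, 0.65 and 0.05 in KO estrus, -0.05 and -0.23 in WT diestrus, and -0.38 and 0.04 in KO diestrus. Here KO estrus 3 lay below WT estrus 3, so the estrus groups overlapped. Mitosis minus S phase was 0.90, 0.57 and 0.97 in KO estrus and ran from -0.73 to 0.20 in the 7 other libraries; its group means were 0.81 ± 0.21 in KO estrus (SD, n = 3), -0.09 ± 0.40 in WT estrus (n = 3), -0.46 ± 0.39 in WT diestrus (n = 2) and -0.63 ± 0.01 in KO diestrus (n = 2). With the 19 kept mitosis genes of mean under 50 and the 1 such S phase gene, E2f1, left out, the KO estrus mean of this difference was 0.28 in place of 0.81. These levels share libraries and are given with no test.

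**Figure D1:**
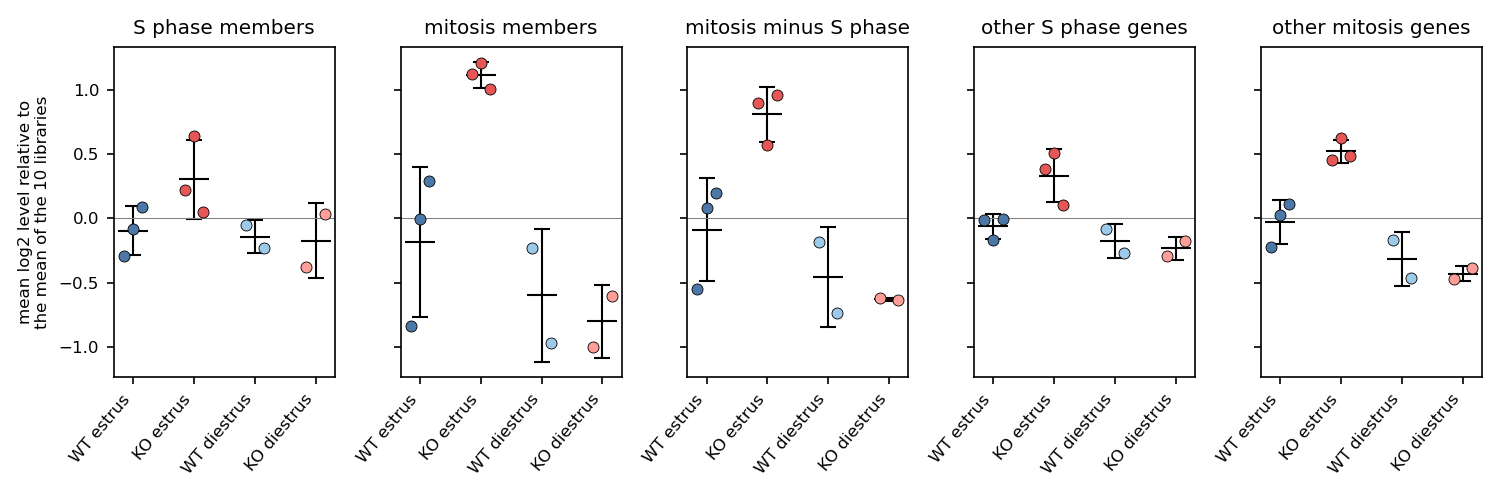
Mean log2 level of 4 gene sets, and of mitosis minus S phase, relative to the mean of the 10 libraries (vertical axis), in each library (points) by group, with the group mean and SD (bars). The 3 KO estrus libraries lie at 1.01 to 1.22 for mitosis genes, above every other library, and the S phase levels of the estrus groups overlap.

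KO was first set against WT at estrus, the stage that follows the estrogen peak. Cenpa, Stmn1 and Cdca8, genes of centromere, microtubules and the chromosomal passenger complex, and Tk1, the thymidine kinase of the nucleotide salvage pathway, were higher in KO by 2.57 to 3.20 fold on group means. These were the only 4 of 38 tested members called by limma (adjusted p under 0.05, log2(normalized count + 1), mean of 10 or more), 3 of the 23 tested mitosis genes and 1 of the 15 S phase genes; 4.2% of all 15180 tested genes were called, and 1.26% were called higher. No member was called lower, against 2.94% of tested genes. Over all listed genes, and with no filter, the 3 KO estrus libraries lay above the 3 WT estrus libraries in 16 of 27 mitosis genes and below them in 0. Among S phase genes they lay above in 4 of 15 (Ccne1, Rrm2, Tyms and Tk1) and below in 1 (Cdk2). Of genes with a mean of at least 10, 12.9% lay above and 13.1% below. Of those with a mean of 10 to 50, where most mitosis genes fall, 10.9% lay above and 5.51% below. KO estrus lay above all 7 other libraries in 14 of 27 mitosis genes and 4 of 15 S phase genes, against 9.46% of genes with a mean of at least 10 and 5.85% of those with a mean of 10 to 50. More cells in division and more of these transcripts per dividing cell cannot be told apart in bulk RNA.

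The median log2 difference at estrus was 1.34 over the 23 tested mitosis genes, 20 of them above 0, and 0.33 over the 15 S phase genes, 10 of them above 0. Over all tested genes it was -0.01, with 49.0% above 0. By group means, KO estrus lay above WT estrus in 24 of 27 mitosis genes (88.9%) and in 55.0% of genes with a mean of 10 to 50. Aurkb, Ccnb1, Birc5 and Cdca5 reached the mean of 10 only through their KO estrus counts, so the limit can add to the mitosis median. With no filter the mitosis median was 1.34 (24 of 27 above 0), with a mean of at least 5 it was 1.40 (23 of 26), and over the 7 mitosis genes with a mean of at least 50 it was 0.22 (5 of 7). The calls rest on few libraries: leaving out WT estrus 2 or KO estrus 1 left 0 members called, leaving out WT estrus 3 left 1, and leaving out KO estrus 2 left 2. Without WT diestrus 1, KO diestrus 1 or KO diestrus 2, which enter only through the shared spread, 2 members were called. With a pseudocount of 5 in place of 1, 8 members were called.

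**Figure D2:**
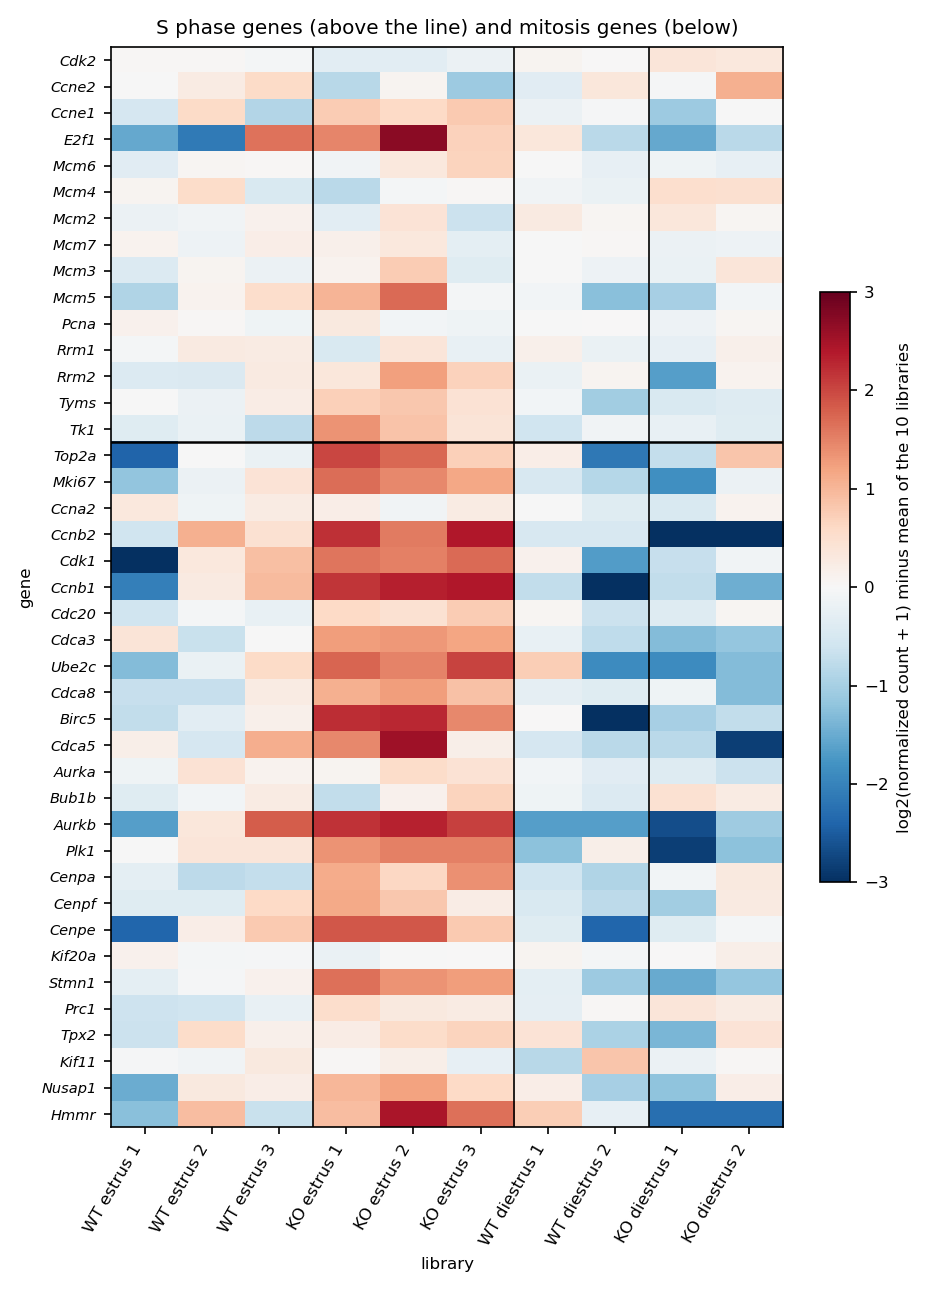
Log2(normalized count + 1) minus the gene's mean over the 10 libraries (colour, cut at -3 and 3) for the 41 kept genes (rows, S phase above the line) in each library (columns). The KO estrus columns are red for most mitosis genes, while Aurka, Ccna2, Kif11 and Kif20a and most MCM genes are pale in all columns.

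Among the mitotic cyclins and their kinase, Ccnb1 encodes cyclin B1, which activates CDK1 at the entry into mitosis. It had 1, 9 and 15 normalized counts in WT estrus, 36, 41 and 43 in KO estrus, 4 and 0 in WT diestrus and 4 and 2 in KO diestrus. The 3 KO estrus libraries thus exceeded all others, with a log2 difference from WT of 2.58 ± 0.79 (SE) and an adjusted p in limma of 0.0735. Ccnb2, which encodes cyclin B2, had 10, 34 and 22 in WT estrus, 75, 48 and 88 in KO estrus, 11 and 11 in WT diestrus, and 1 and 1 in KO diestrus. Its estrus groups did not overlap (log2 1.74 ± 0.46, limma adjusted p = 0.0524), and it was lowest of all in KO diestrus. Cdk1 had 0, 15 and 23 in WT estrus, 38, 36 and 41 in KO estrus, 13 and 3 in WT diestrus and 7 and 11 in KO diestrus (log2 2.43 ± 0.97, limma adjusted p = 0.138). Ccna2 behaved otherwise: cyclin A2, which serves both S phase and mitosis, had 151, 111 and 144 in WT estrus, 139, 113 and 144 in KO estrus, 120 and 94 in WT diestrus and 88 and 131 in KO diestrus. Its groups overlapped throughout, with an estrus log2 difference of -0.03 ± 0.22. Of the exon bases of Ccna2, 12.5% are shared with Exosc9 on the opposite strand, and since the sources used here do not give whether counting used strand, its value is uncertain.

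Among the kinases of mitosis, Aurka, which builds the spindle poles, was the most highly expressed, with 242, 359 and 289 normalized counts in WT estrus, 282, 390 and 358 in KO estrus, 251 and 212 in WT diestrus and 205 and 169 in KO diestrus. The estrus groups overlapped (log2 0.22 ± 0.19, limma adjusted p = 0.514). Aurkb, the kinase of the chromosomal passenger complex, had 1, 7 and 21 in WT estrus, 27, 30 and 25 in KO estrus, 1 and 1 in WT diestrus and 0 and 2 in KO diestrus. KO estrus was the highest group without overlap, but the WT libraries spread widely and the difference of 2.00 ± 0.80 had a limma adjusted p of 0.142. Bub1b, of the spindle checkpoint, had 34, 63 and 92 in KO estrus against 44, 54 and 68 in WT estrus and did not pass the test. Plk1, at a mean of 8.8, lay under the limit for the test and had 17, 19 and 19 in KO estrus against 6, 8 and 8 in WT estrus, 2 and 7 in WT diestrus and 0 and 2 in KO diestrus. Bub1 had at most 12 counts in any library.

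The chromosomal passenger complex has further members in the set. Cdca8, which encodes borealin, had 22, 22 and 43 normalized counts in WT estrus, 77, 88 and 68 in KO estrus, 30 and 28 in WT diestrus and 33 and 14 in KO diestrus. It rose in KO at estrus by 1.45 ± 0.37 on the log2 scale (limma adjusted p = 0.048), and the call was lost with any of the 10 libraries left out, with an adjusted p between 0.0537 and 0.124. A predicted gene on the opposite strand shares 4.48% of its exon bases. Birc5, which encodes survivin, had 5, 7 and 10 in WT estrus, 45, 47 and 26 in KO estrus, 9 and 0 in WT diestrus and 4 and 5 in KO diestrus. Every KO estrus library exceeded every other, with a log2 difference of 2.27 ± 0.72 and a limma adjusted p of 0.0783. Cdca5, which encodes sororin, a protector of sister chromatid cohesion, had 7, 4 and 14 in WT estrus, 18, 40 and 7 in KO estrus, 4 and 3 in WT diestrus and 3 and 0 in KO diestrus. Its estrus groups overlapped through KO estrus 3.

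At the centromere, Cenpa encodes the histone H3 variant that marks where the kinetochore forms. It had 51, 36 and 38 normalized counts in WT estrus, 137, 98 and 165 in KO estrus, 41 and 33 in WT diestrus and 59 and 78 in KO diestrus. It rose in KO at estrus by 1.64 ± 0.27 (limma adjusted p = 0.0165), and it was the only member called when the difference was averaged over both stages (1.25 ± 0.21, adjusted p = 0.0336, with 0.665% of tested genes called). The estrus call was lost on leaving out KO estrus 1, WT estrus 2 or WT estrus 3 (adjusted p up to 0.0601). The averaged call was lost in 7 of 10 omissions, those 3 libraries and each of the 4 diestrus libraries. Cenpf had 15, 15 and 30 in WT estrus and 44, 35 and 23 in KO estrus, and Cenpe 0, 5 and 8 against 18, 18 and 8. Neither pair of groups was free of overlap or ties.

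The anaphase promoting complex ends mitosis by degrading cyclin B and other proteins, and 3 members were grouped under it or its partners. Cdc20, an activator of the complex, had 45, 65 and 58 normalized counts in WT estrus, 104, 94 and 116 in KO estrus, 71 and 43 in WT diestrus and 52 and 71 in KO diestrus. KO estrus exceeded all others (log2 0.90 ± 0.26, limma adjusted p = 0.0636). Ube2c, its ubiquitin-conjugating enzyme, had 5, 12 and 21 in WT estrus, 49, 41 and 60 in KO estrus, 24 and 3 in WT diestrus and 3 and 5 in KO diestrus (log2 2.07 ± 0.66, limma adjusted p = 0.0782). Cdca3, which promotes degradation of the mitosis inhibitor WEE1, had 28, 13 and 21 in WT estrus, 52, 54 and 49 in KO estrus, 18 and 12 in WT diestrus and 8 and 9 in KO diestrus (log2 1.34 ± 0.36, limma adjusted p = 0.0528). These 3 genes all had KO estrus above the 7 other libraries without passing the test.

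Of the spindle and microtubule proteins, Stmn1, which encodes the microtubule destabiliser stathmin, had 76, 91 and 101 normalized counts in WT estrus, 293, 238 and 221 in KO estrus, 76 and 43 in WT diestrus and 32 and 41 in KO diestrus. It rose in KO at estrus by 1.48 ± 0.25 (limma adjusted p = 0.0173), a call lost without WT estrus 2 or KO estrus 1 (adjusted p up to 0.0663). Prc1, which bundles microtubules of the central spindle, had 30, 31 and 40 in WT estrus, 68, 58 and 56 in KO estrus, 39 and 48 in WT diestrus and 61 and 56 in KO diestrus. Its KO estrus values overlapped those of KO diestrus, and the estrus difference of 0.84 ± 0.24 had a limma adjusted p of 0.0643. Nusap1 had 4, 16 and 15 in WT estrus, 27, 31 and 20 in KO estrus, 15 and 6 in WT diestrus and 5 and 15 in KO diestrus (log2 1.26 ± 0.58, limma adjusted p = 0.197). Other spindle genes showed no such gap. Kif20a, a kinesin of cytokinesis, had 195, 171 and 175 in WT estrus, 155, 176 and 180 in KO estrus, 188 and 171 in WT diestrus and 179 and 203 in KO diestrus (log2 -0.08 ± 0.16). Kif11, the motor that separates spindle poles, had 11 to 37 and Tpx2, the activator of Aurora A, 8 to 36 in all libraries, with overlapping groups at estrus. Kif20a shares 29.3% of its exon bases with Cdc23 on the opposite strand, Ube2c 22.8% with Tnnc2 and Prc1 11.1% with Rccd1, so these values are uncertain for the same reason as that of Ccna2; Tnnc2 itself had a mean of 0.2.

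For the proteins that shape and coat chromosomes, Mki67, the widely used proliferation marker, had 7, 15 and 23 normalized counts in WT estrus, 57, 48 and 39 in KO estrus, 12 and 9 in WT diestrus and 4 and 15 in KO diestrus. Top2a, the topoisomerase that untangles sister chromatids, had 4, 25 and 22 in WT estrus, 105, 86 and 42 in KO estrus, 29 and 5 in WT diestrus and 15 and 46 in KO diestrus. Neither overlapped between the estrus groups, and the log2 differences were 1.74 ± 0.51 for Mki67 (limma adjusted p = 0.0665) and 2.35 ± 0.74 for Top2a (adjusted p = 0.077). KO diestrus 2 with 46 counts of Top2a exceeded KO estrus 3.

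**Figure D3:**
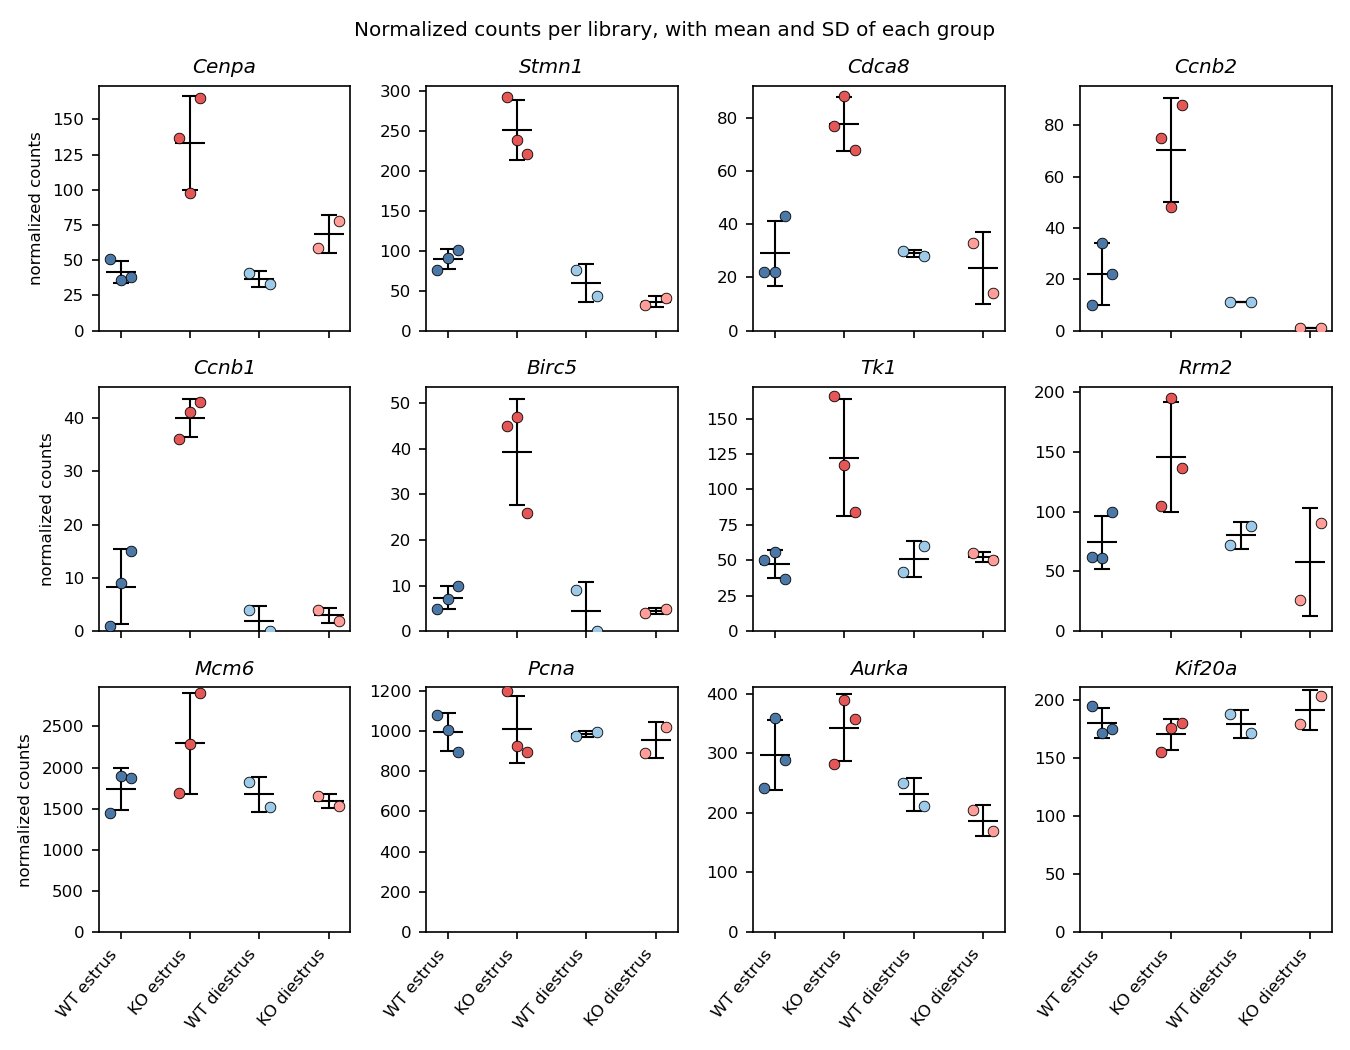
Normalized counts of 12 member genes (vertical axes, each from 0) in each library (points) by group, with the group mean and SD (bars). Cenpa, Stmn1, Cdca8, Ccnb2, Ccnb1, Birc5, Tk1 and Rrm2 have their KO estrus points above all others, and Mcm6, Pcna, Aurka and Kif20a have overlapping estrus groups.

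Of the S phase genes, 3 enzymes that supply deoxynucleotides had estrus groups that did not overlap. Tk1 had 50, 56 and 37 normalized counts in WT estrus, 166, 117 and 84 in KO estrus, 42 and 60 in WT diestrus and 55 and 50 in KO diestrus. It rose in KO at estrus by 1.31 ± 0.29 (limma adjusted p = 0.0365), and the call was kept in 2 of 10 omissions of a library, without WT estrus 1 and without KO estrus 3. Rrm2, the inducible subunit of ribonucleotide reductase, had 62, 61 and 100 in WT estrus, 105, 195 and 136 in KO estrus, 72 and 88 in WT diestrus and 26 and 90 in KO diestrus (log2 0.95 ± 0.40, limma adjusted p = 0.162). Tyms, thymidylate synthase, had 87, 77 and 101 in WT estrus, 143, 152 and 117 in KO estrus, 82 and 42 in WT diestrus and 63 and 66 in KO diestrus (log2 0.63 ± 0.26, limma adjusted p = 0.148). In all 3 the KO estrus libraries exceeded all others. Rrm1, the large subunit of the reductase, had 185, 326 and 220 in KO estrus against 243, 309 and 305 in WT estrus, with overlap.

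The helicase and the clamp had overlapping estrus groups. Mcm6, a subunit of the helicase, had 1452, 1901 and 1875 normalized counts in WT estrus, 1686, 2292 and 2903 in KO estrus, 1821 and 1527 in WT diestrus and 1657 and 1539 in KO diestrus. The estrus groups overlapped through KO estrus 1 (log2 0.37 ± 0.19, limma adjusted p = 0.245). Pcna, the clamp that holds DNA polymerase, had 1081, 1002 and 894 in WT estrus, 1198, 927 and 897 in KO estrus, 975 and 994 in WT diestrus and 892 and 1019 in KO diestrus (log2 0.01 ± 0.15). Its groups overlapped at both stages. Mcm5 had 31, 64 and 85 in WT estrus and 121, 194 and 57 in KO estrus (log2 0.98 ± 0.50), and the differences of Mcm2, Mcm3, Mcm4 and Mcm7 ran from -0.33 to 0.33 with overlapping groups. No MCM gene was called at estrus.

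The drivers of S phase entry included genes with KO estrus above and below the other groups. Ccne1, which encodes cyclin E1, had 37, 78 and 28 normalized counts in WT estrus, 90, 80 and 91 in KO estrus, 46 and 51 in WT diestrus and 24 and 52 in KO diestrus (log2 0.99 ± 0.38, limma adjusted p = 0.127). Its partner Cdk2 had 412, 414 and 391 in WT estrus, 326, 324 and 359 in KO estrus, 430 and 410 in WT diestrus and 519 and 507 in KO diestrus. Cdk2 was lowest in KO estrus and highest in KO diestrus, without overlap, and the estrus difference was -0.27 ± 0.13 (limma adjusted p = 0.203). Ccne2, which encodes cyclin E2, had 56, 67 and 84 in WT estrus and 31, 60 and 26 in KO estrus (log2 -0.88 ± 0.38, limma adjusted p = 0.166), and it shares 17.4% of its exon bases with Ints8 on the opposite strand. E2f1, the transcription factor of the first wave, had 2, 1 and 26 in WT estrus, 23, 56 and 13 in KO estrus, 10 and 4 in WT diestrus and 2 and 4 in KO diestrus, with overlap through WT estrus 3 (log2 2.30 ± 0.90, limma adjusted p = 0.133).

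At diestrus the KO libraries had no common difference from WT. The median log2 difference of KO from WT was -0.06 over the 23 tested mitosis genes and 0.03 over the 15 S phase genes. limma called 0 members (0.0395% of tested genes were called), and 2 members had an unadjusted p under 0.05, as had 5.92% of tested genes. These were Ccnb2, with 1 and 1 counts in KO and 11 and 11 in WT (log2 -2.59 ± 0.56, adjusted p = 0.171), and Cenpa, with 59 and 78 against 41 and 33 (0.87 ± 0.33, adjusted p = 0.711). With 2 libraries in each diestrus group, the estimate of the spread came mostly from elsewhere in the fit.

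Within KO, estrus was set against diestrus, a comparison that uses the same KO estrus libraries as the one above and is not independent of it. Cyclin B2, stathmin, Cdca3 and the Aurora kinases were among 11 of 23 tested mitosis genes called higher at estrus, with 0 called lower. Of the 15 S phase genes, Rrm2, Tyms and Tk1 were called higher and Cdk2 lower. In all tested genes 16.6% were called, 7.67% higher and 8.95% lower. The differences called among mitosis genes ran from 0.87 ± 0.22 for Aurka (limma adjusted p = 0.0215) to 5.11 ± 0.51 for Ccnb2 (adjusted p = 0.00186). Stmn1 was higher by 2.75 ± 0.28 (adjusted p = 0.00186), Cdca3 by 2.47 ± 0.40 (adjusted p = 0.00584) and Aurkb by 4.03 ± 0.90 (adjusted p = 0.0146). The others called were Ube2c, Cdca8, Mki67, Cdca5, Ccnb1 and Birc5. Of the 11, Aurkb, Cdca5, Ccnb1 and Birc5 reached the mean of 10 needed for the test only through their KO estrus counts. The limit can thus add to the number called, and these calls are no separate support for a difference. Rrm2 was higher by 1.52 ± 0.45 (adjusted p = 0.0408), Tyms by 1.07 ± 0.29 (adjusted p = 0.0288) and Tk1 by 1.15 ± 0.32 (adjusted p = 0.034), and Cdk2 was lower by a log2 difference of -0.61 ± 0.14 (adjusted p = 0.0175). Cenpa, called against WT, missed the threshold here (0.93 ± 0.30, adjusted p = 0.0517). With genes of a mean of at least 5 tested as well, Plk1 (3.48, adjusted p = 0.00838) and Hmmr (3.93, adjusted p = 0.0108), a spindle protein with 8, 25 and 14 counts in KO estrus and 0 in both KO diestrus libraries, were also called. Both reached the mean of 5 only through KO estrus. The number of members called was 15, and it fell to 3 without KO diestrus 1, to 2 without KO diestrus 2 and to 9 without KO estrus 1. Ccnb2 and Stmn1 were called whichever of the 10 libraries was left out.

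**Figure D4:**
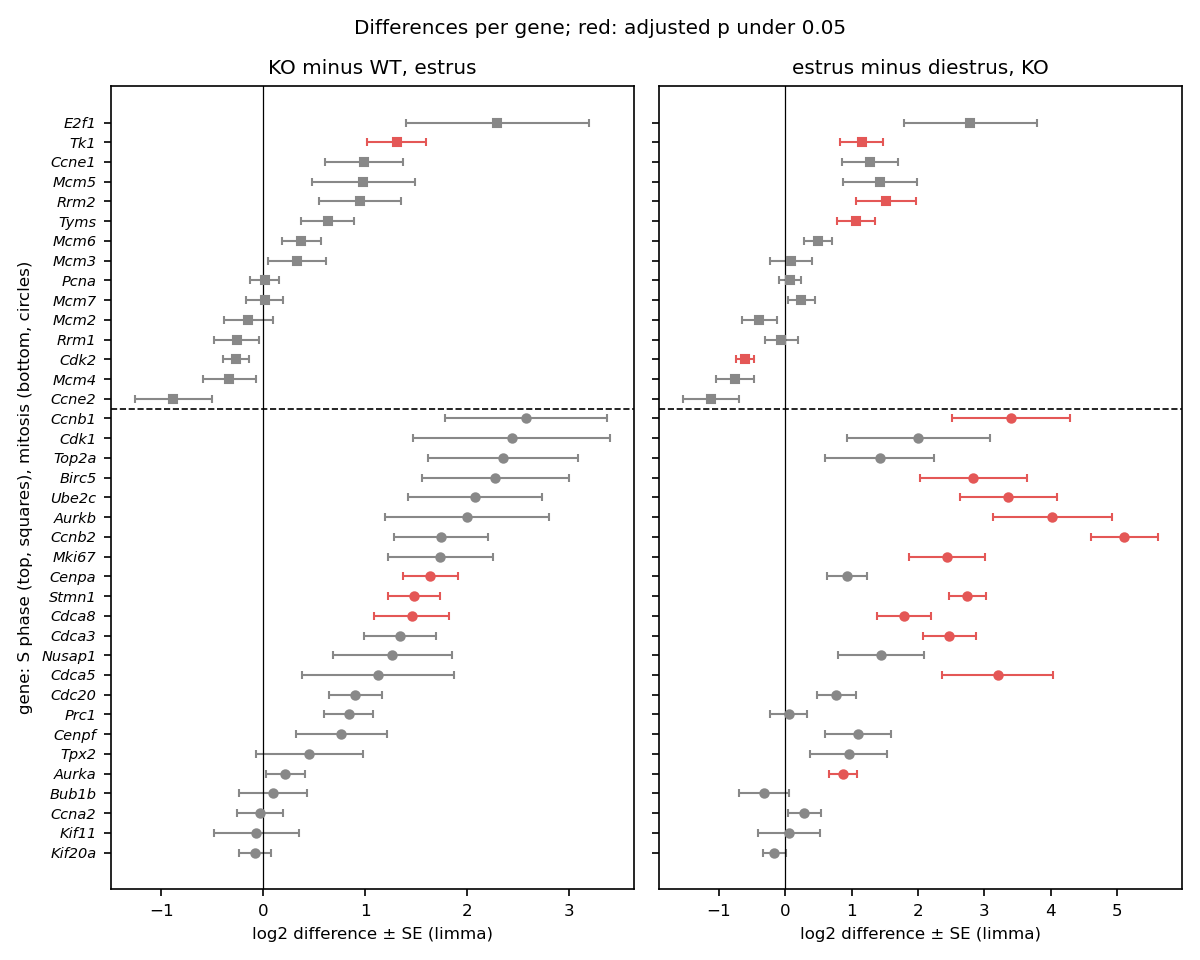
Log2 difference ± SE from limma (horizontal axes) for the 38 tested members, S phase as squares above the dashed line and mitosis as circles below it, for KO minus WT at estrus (left) and estrus minus diestrus in KO (right). Red marks adjusted p under 0.05, with 4 members called on the left and 15 on the right. Both panels use the KO estrus libraries.

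Within WT, estrus was set against diestrus. limma called 0 genes in the whole table, with 3.87% at an unadjusted p under 0.05, and 1 member, Stmn1, was at that level (log2 0.62, adjusted p = 1). The median difference of estrus from diestrus was 0.30 over tested mitosis genes, 20 of 23 above 0, and 0.01 over S phase genes, with 49.3% of all tested genes above 0. The mitosis median was 0.07 (13 of 23) without WT diestrus 2, 0.67 without WT diestrus 1 and 0.64 without WT estrus 1. The 3 WT estrus libraries themselves spread widely. WT estrus 1 had 0 counts of Cdk1 and 1 of Ccnb1, and WT estrus 3 had 23 and 15.

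Whether the genotype difference depended on stage was tested by the interaction, which also rests on the KO estrus libraries. limma called 0 genes in the whole table, and 14.2% had an unadjusted p under 0.05. Among members, 13 were at that level. Higher were the mitosis genes Ccnb2 (4.33, adjusted p = 0.156), Stmn1 (2.12, adjusted p = 0.165), Cdca3 (2.07, adjusted p = 0.253), Cdca8, Ube2c and Mki67 and the S phase genes Ccne1, E2f1, Rrm2 and Tk1, and lower were Ccne2, Cdk2 and Mcm4. In Ccnb2, Stmn1 and Cdca3 KO lay above WT at estrus and below it at diestrus in every library, and in Cdk2 the reverse held. At diestrus, 21.4% of tested genes had KO above WT without overlap and 21.6% below. A dependence of the genotype difference on stage was therefore not established for any member.

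Other genes of the same processes were read against all tested genes, of which 4.2% were called at estrus, 11.8% were higher at an unadjusted p under 0.05 and 14% lower. Of 40 further S phase genes 35 were tested, and limma called 0, with 12 at an unadjusted p under 0.05, all of them higher; their median difference was 0.28. The most highly expressed were Dnmt1, the maintenance DNA methyltransferase (-0.29 ± 0.18), and Slbp, which binds histone messages (-0.08 ± 0.16). Of 55 further mitosis genes 39 were tested, with 0 called higher and 1 lower, 6 higher and 3 lower at an unadjusted p under 0.05, and a median of 0.11. The called gene was Anln, which encodes anillin, a scaffold of the cytokinetic ring. It had 773, 413 and 642 normalized counts in WT estrus, 187, 209 and 174 in KO estrus, 566 and 701 in WT diestrus and 380 and 514 in KO diestrus. It fell by 1.63 on the log2 scale in KO at estrus (SE 0.22, limma adjusted p = 0.00835), and the call held with each of the 10 libraries left out. The levels of both lists per library were highest in KO estrus, at 0.46 to 0.63 for further mitosis genes against -0.22 to 0.11 in WT estrus, and at 0.11 to 0.51 for further S phase genes against -0.17 to -0.00. Untested low genes with a mean of at least 5 enter these levels, and some reach that mean only through KO estrus. Cdkn3, for example, had 13, 11 and 16 counts in KO estrus and at most 4 in any other library. These levels are therefore no separate support for a difference.

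Between estrus and diestrus in KO, 5 of the 35 tested further S phase genes were called higher and 1 lower, a share near the 16.6% called among all tested genes. Among the higher, Gmnn, which encodes the licensing inhibitor geminin, differed by 1.58 (adjusted p = 0.0083), Prim1 by 1.61 (adjusted p = 0.0248), Dut by 1.36 (adjusted p = 0.0194) and Asf1b by 1.73 (adjusted p = 0.0443). Cdc7, a kinase that fires replication origins, was lower by a log2 difference of -1.21 (adjusted p = 0.0414). Of the 39 tested further mitosis genes, 7 were called higher and 4 lower, where 7.67% and 8.95% of all tested genes were. Among the higher were the kinetochore genes Spc24 (3.27, adjusted p = 0.0174) and Spc25 (2.15, adjusted p = 0.00584), Pbk (4.47, adjusted p = 0.00992), Racgap1 (3.25, adjusted p = 0.00771) and Kif22 (2.50, adjusted p = 0.0328). Spc24, Pbk and Kif22 reached the mean of 10 needed for the test only through their KO estrus counts. The B-MYB gene Mybl2 had 29, 31 and 23 counts in KO estrus and 6 and 8 in KO diestrus, but 36, 21 and 15 in WT estrus. The 4 lower genes, named after their values were seen, were Anln, Lmnb1, Ckap5 and Zwint.

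The list of the DREAM complex and of the CDK inhibitors held 14 genes, all tested, and had a median below 0. It includes Rb1, which belongs to neither class. At estrus limma called 0, 6 were lower at an unadjusted p under 0.05 (14% of all tested genes) and 0 higher (11.8%), and the median difference was -0.26. Rbbp4, the most highly expressed, had 2352, 3166 and 2288 normalized counts in KO estrus and 3539, 3229 and 3805 in WT estrus (-0.45 ± 0.15, limma adjusted p = 0.0926). Cdkn1a, which encodes the CDK inhibitor p21, had 4904, 2648 and 1947 in KO estrus and 3373, 2537 and 1988 in WT estrus, with overlap. Against KO diestrus, the DNA-binding subunit Lin54 (-1.05, adjusted p = 0.0105) and Lin52 (-0.93, adjusted p = 0.0188) were called lower in KO estrus. In that comparison 8.95% of all tested genes were called lower. Both calls were lost without KO diestrus 1 or KO diestrus 2, and that of Lin52 also without KO estrus 1.

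Other transcripts also differed in the KO estrus libraries. All 28 listed genes of the large ribosomal subunit, a part of that subunit, were above 0 at estrus, with a median log2 difference of 0.65 and 5 called higher. Of all tested genes, 49.0% were above 0 and 1.26% were called higher. Their level was 0.86, 0.33 and 0.07 in the 3 KO estrus libraries and -0.28 to -0.15 in WT estrus. Of markers of other cell types, the summed lymphocyte list reached 138 to 187 normalized counts in KO estrus and 66 to 94 in WT estrus, nearly all of it Trbc2, while Ptprc, Cd79a and Cd79b had at most 6 counts in any library. Trbc2, the 1 tested gene of this list, was called higher in KO at estrus (log2 1.13). The macrophage list summed to 579 to 816 against 321 to 610, with a median log2 difference of 0.89 over its 5 tested genes, 4 of them above 0 and 0 called (1 at an unadjusted p under 0.05). Cd74 had 409, 436 and 215 normalized counts in KO estrus and 211, 222 and 32 in WT estrus, C1qb 44, 30 and 8 against 8, 16 and 3, and C1qa 12, 18 and 4 against 3, 5 and 1. Csf1r had 187 to 205 against 192 to 239, and Adgre1 at most 5 in any library. Against KO diestrus the median of the list was 1.68, and Cd74 (2.35 ± 0.66, limma adjusted p = 0.0342) and C1qb (4.04 ± 0.86, adjusted p = 0.0129) were called higher in KO estrus. In that comparison 7.67% of all tested genes were called higher. In KO estrus against WT estrus, basal markers summed to 569 to 1223 against 600 to 2077 and luminal progenitor markers to 5123 to 7999 against 4997 to 6761. These sums hide differences between genes. Of 6 tested basal genes 5 were below 0 (median -0.65). Krt5 went the other way, with 502, 149 and 47 against 54, 32 and 77. Of 8 luminal progenitor genes, 4 were above 0 and 4 below. Elf5 had 14, 18 and 21 against 35, 29 and 38, and Itga2 174, 96 and 57 against 203, 221 and 195. Both were lower without overlap, 0 of the 8 were higher without overlap, and 13.1% of all tested genes were lower. The fibroblast list, nearly all of it Dcn, varied most within KO estrus, with sums of 761, 3101 and 107. It reached 654 to 1610 in WT estrus and 94 to 117 in KO diestrus. The lymphocyte genes Cd3e, Cd3g, Ms4a1 and Nkg7 were searched for by symbol and not found among the 26312 genes, so they enter no sum. The part of these cell types and of the ribosomal genes in the differences of the cycle genes was not tested.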

How the data were processed

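Total RNA of sorted mouse mammary cells was sequenced in 10 libraries. The tools named in the submitters' processing notes are STAR, HTSeq and DESeq2, and the build is mm10; versions, settings, strand use and the gene annotation are not given in the sources used here. Each deposited value is a score, the library's normalized count of reads on that gene, which the authors rounded to a whole number, so the values are neither raw counts nor divided by gene length. The spacing of whole numbers up to 150 gave each library's divisor, 0.837 to 1.18, and an estimated 12.0 to 16.7 M reads. Groups came from the library names and the genotype entry, because titles of KO libraries also carry the word WT. The table gave 26249 genes a symbol in GENCODE M21 and 63 none.

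Values were analysed as log2(value + 1). limma 3.58.1 in R 4.3.3, letting the spread follow the level, fitted 4 group means to all 10 libraries for the 15180 genes of mean 10 or more. The 6 contrasts were two-sided and adjusted by Benjamini-Hochberg over all tested genes (threshold 0.05). The fit was tested on simulated data. Members without a test were Plk1, Cenpe, Hmmr and Bub1. Lists were described by counts and medians with no test of the list. The members, the lists and the rule for naming were chosen with earlier results of these data known. Named with all values were members called in any contrast, those with an estrus difference above 1 on the log2 scale, the highest and lowest members of each set and 1 member or more per role. Of further lists, up to 6 called genes per contrast were named, otherwise the 2 of highest expression (1 gene that the rule names is not reported here); promoters were those of up to 3 mitosis genes of smallest p at estrus and the 2 highest S phase genes. Promoter windows came from RefSeq, GRCm38.p6, and exon overlaps and lengths from GENCODE M21. Alternatives were other pseudocounts (0.5 and 5), filters (mean of 5, 50 or none) and scalings, a fit without the trend, library weights, removal of trends on length and GC content, the replicate number as a block, a fit on only the groups compared, and omission of each library. Python 3.11.15 and matplotlib 3.10.9 drew the figures.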

Additional observations from a re-analysis of the deposited data

How the results depend on the processing

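The number of members called at estrus was 4 with the settings used and 8 with a pseudocount of 5, 2 with no filter, with library weights or with trends on length and GC removed, and 1 without the trend in the spread or with the compared groups alone; leaving out 1 library gave 0 to 4. The estrus median of S phase genes ran from 0.067 to 0.44 over these omissions, and that of mitosis genes was 0.22 over genes of mean 50 or more. At diestrus library weights gave 1 called member in place of 0, and omissions moved the mitosis median from -0.43 to 0.37. Averaged over stages, the 1 call was lost with no filter (0) and without the trend (0), and omissions gave 0 to 1. Between estrus and diestrus in KO, genes of mean 50 or more gave 6 members called and a mitosis median of 0.77, and omissions gave 2 to 17 members and medians of 1.01 to 2.15. Between stages in WT, omissions gave mitosis medians of 0.066 to 0.674. The mitosis median of the interaction was 0.52 over genes of mean 50 or more and 0.63 to 1.97 over omissions. No member was called by the interaction, or between stages in WT, under any setting run. Mitosis minus S phase over genes of mean 50 or more was 0.28 in KO estrus and -0.14 in KO diestrus.

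Differences near 0 changed sign. Ccna2 at estrus was 0.011 with equal totals, 0.064 with trends on length and GC removed and -0.167 to 0.076 over omissions. Kif20a was 0.024 and Rrm1 0.002 with those trends removed. Pcna was -0.014 with library weights, -0.025 with the trends removed, and -0.117 to 0.091 over omissions. Genes called at estrus numbered 637, against 89 with no filter, 44 without the trend, 229 with weights, 214 with trends removed, 23 with the compared groups alone, 996 with the block and 67 to 909 over omissions. The 191 higher and 446 lower became 271 and 303 with equal totals and 397 and 423 with quantile normalization. In KO between stages, 2524 genes became 1626 with no filter, 3884 with weights, 1514 with trends removed and 39 to 2894 over omissions. The causes of these changes were not tested.

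Libraries of the same replicate number did not deviate together (correlations of -0.13 to 0.19), so the numbers are not taken as pairs. With the replicate number as a block, 4 members were called at estrus and 15 between stages in KO. Groups of 2 and 3 libraries, and members with few counts, limit all of these values; medians and levels share libraries and were not tested.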
